A study of Mus musculus with 24 samples.

Results

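The lambda light chains of the spleen were read from sequencing of B cell receptor (BCR) transcripts in 8 libraries. An entry, which is 1 assembled CDR3 sequence with its read count, was kept when its V and J segments were both named IGL and its CDR3 translated to letters only, with no stop codon and no frame break. This left 65191 lambda entries with 1172337 reads, out of 1154635 BCR entries in all, beside 371514 kappa entries and 583846 heavy-chain entries. The series compared spleens of a CT-26 tumour model with normal spleens in BALB/c mice, and CT-26 is a colon carcinoma line from that strain. Per the labels, CT-26 cells were injected into the right side of mice aged 8 weeks, and splenocytes are named as the cell type. There were 4 libraries titled control and 4 titled CT-26, with RNA-seq of the same titles. The treatment field contradicts the titles: libraries titled control carry the CT-26 injection and those titled CT-26 carry the healthy control. The sets are therefore named by title, every difference is titled CT-26 minus titled control, and no difference is read as tumour against healthy. No label says that the libraries of a set are separate mice, so p-values measure the spread between libraries.

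A light chain pairs with a heavy chain to form the B cell receptor, and each B cell makes either kappa or lambda. The mouse lambda locus holds few V segments, each joined to a J segment that is spliced to its own constant segment, so that the V-J pair nearly fixes the protein. The CDR3 is the loop at the V-J joint, and light-chain joints in mice carry few added bases because terminal transferase is low when light chains are joined. On GRCm39, as the deposited RNA tables place the genes, all segments lie on the minus strand of chromosome 16. In the order of transcription they are Iglv2 (chr16:19079151-19079609), Iglv3 (chr16:19059957-19060440), Iglj2 (chr16:19018948-19018985), Iglv1 (chr16:18903767-18904250), Iglj3 (chr16:18885791-18885828) and Iglj1 (chr16:18881975-18882012). Iglv1 thus lies downstream of Iglj2, and joining by deletion brings it to Iglj3 or Iglj1. The ends of the V segments, from the cysteine codon that opens the CDR3, are shown because they name the segment in an entry. They are from the GENCODE M21 transcripts (GRCm38), 5′ to 3′, and capitals mark the base that differs between IGLV1 and IGLV2, which is base 20, in codon 7.
IGLV1: tgtgctctatggtacagcaAccatttc
IGLV2: tgtgctctatggtacagcaCccatttc
IGLV3: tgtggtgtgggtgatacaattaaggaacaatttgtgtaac
The J segments are shown whole from the same source, and capitals mark the 10 bases that fall in the CDR3.
IGLJ1: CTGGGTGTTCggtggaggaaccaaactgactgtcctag
IGLJ2: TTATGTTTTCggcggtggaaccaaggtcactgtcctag
IGLJ3: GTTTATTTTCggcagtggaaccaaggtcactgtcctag

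The leading joints of the 4 larger V-J pairs and of IGLV3 are shown next, since a few joints carry most lambda reads, with capitals for the bases after the longest match to the reference V segment.
IGLV1-IGLJ1 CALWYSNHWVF: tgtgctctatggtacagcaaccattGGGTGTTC
IGLV1-IGLJ1 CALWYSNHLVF: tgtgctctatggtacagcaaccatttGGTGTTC
IGLV1-IGLJ3 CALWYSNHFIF: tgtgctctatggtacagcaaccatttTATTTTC
IGLV1-IGLJ3 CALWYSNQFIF: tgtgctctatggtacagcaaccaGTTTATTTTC
IGLV2-IGLJ1 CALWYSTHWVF: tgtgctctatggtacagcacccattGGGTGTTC
IGLV2-IGLJ2 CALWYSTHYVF: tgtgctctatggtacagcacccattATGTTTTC
IGLV2-IGLJ2 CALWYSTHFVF: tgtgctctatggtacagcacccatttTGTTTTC
IGLV3-IGLJ2: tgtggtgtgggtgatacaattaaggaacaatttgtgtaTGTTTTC
In each of these 8 sequences every base after the V match also matched the end of the named J segment, so 0 bases belonged to neither. Not every frequent joint had this property. The leading joint of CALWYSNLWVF of IGLV1-IGLJ1 matched 22 bases of IGLV1 and 9 of IGLJ1 and held 2 in neither. It took 1.31% to 2.37% of the pair's reads. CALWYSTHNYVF of IGLV2-IGLJ2 matched 24 bases of IGLV2 and 10 of IGLJ2 and held 2 bases in neither.
IGLV2-IGLJ2 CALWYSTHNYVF: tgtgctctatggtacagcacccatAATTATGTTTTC

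The libraries differed in how many heavy-chain (IGH) clonotypes they had in common. A clonotype is an entry joined by V, J and CDR3 bases. Between libraries titled control, from 45.2% to 52.9% of the IGH reads of one lay in clonotypes also found in the other, and from 71.2% to 82.1% where only clonotypes of at least 20 reads were used. Between libraries titled CT-26 the shares were 4.95% to 31.3%, and across the sets 2.89% to 11.9%. Lambda counts over clonotypes differed by 3.30 to 4.13 chi-square units per degree of freedom within the titled control set, by 18.1 to 54.5 within titled CT-26 and by 42.3 to 70.7 across sets. Whether the titled control libraries share cells, mice or library material was not tested, and counted as 1 sample they leave 1 against 4, where the exact permutation test cannot give a p below 0.2. All permutation calls below are lost under that count, while each difference keeps its size. The edgeR fits below also take the titled control libraries as separate samples and were not refitted under that count.

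**Figure D1:**
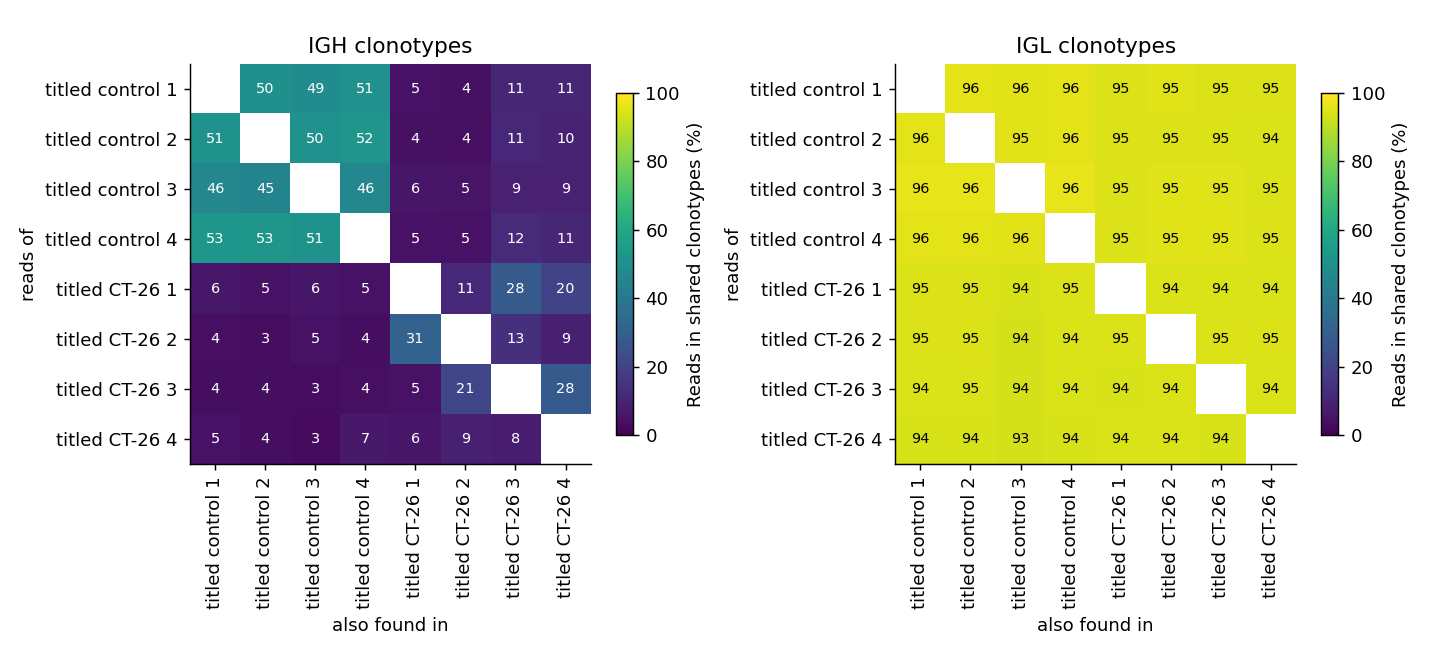
Share of the reads of one library (rows) that lie in clonotypes also found in another (columns), in percent, for IGH on the left and IGL on the right. IGH sharing is highest among the 4 titled control libraries, from 45.2% to 52.9%, while IGL sharing is at least 93.4% for every pair of libraries.

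Receptor libraries held 111359 to 179392 lambda reads and 292851 to 562869 kappa reads each, and RNA libraries 735298 to 1970950 counts. In RNA the B cell markers Cd79a and Ms4a1 were present in every library and lower in titled CT-26. Their summed level was 588 to 773 CPM, counts relative to the TMM-scaled library total, in titled control and 55.9 to 92.4 in titled CT-26. Both T cell markers and both red pulp macrophage markers of the list were lower as well, and of the plasma cell markers 1 of 3 tested (Jchain) was lower and 0 higher. Among all 6408 genes tested, 42.8% passed an edgeR adjusted p of 0.05, 1359 higher and 1384 lower. In bulk tissue fewer cells of a type and less RNA per cell cannot be told apart, and the part of these marker shifts in the receptor results was not tested.

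IGLV1 was the main V segment, IGLV2 was second and IGLV3 was rare. As shares of lambda reads, titled CT-26 held less IGLV1 and IGLV3 and more IGLV2. IGLV1 took 65.5%, 63.6%, 64.8% and 65.9% of lambda reads in titled control 1 to 4 and 61.2%, 52.9%, 58.8% and 61.7% in titled CT-26 1 to 4. IGLV2 took 34.1%, 36.0%, 34.4% and 33.5% against 38.5%, 46.9%, 41.1% and 38.2%. For both segments titled CT-26 2 lay farthest from the titled control set, and the sets did not overlap. IGLV3 took 0.472%, 0.416%, 0.804% and 0.521% against 0.274%, 0.153%, 0.168% and 0.120%, from 720 to 1062 reads a library in titled control and 173 to 418 in titled CT-26. Its mean fell from 0.553% ± 0.173 (SD, n = 4) to 0.179% ± 0.0670, or to 0.323 of the titled control level. For IGLV1 the means were 64.96% ± 1.01 and 58.6% ± 4.03, and for IGLV2 34.5% ± 1.05 and 41.2% ± 4.05. All 3 differences had an adjusted p of 0.0286 in a two-sided exact permutation test over 70 assignments, the smallest it can give. The 3 shares sum to a whole, so a rise in one lowers the others. Of all light-chain reads, kappa included, IGLV1-IGLJ1 had means of 14.1% in titled control and 13.6% in titled CT-26. IGLV1-IGLJ3 had 1.35% and 3.49%, and IGLV1-IGLJ2 0.296% and 0.569%. The fall of IGLV1 is thus one within lambda, and V segments were not tested against all light-chain reads.

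The V-J pairs moved more than the V segments, and among the 5 common pairs the direction followed the J segment. As shares of lambda reads both IGLJ1 pairs fell, and the IGLJ2 and IGLJ3 pairs of IGLV1 and IGLV2 rose, while the rare IGLV3-IGLJ2 was lower in every titled CT-26 library. V names here are the deposited ones. Most reads named IGLV1-IGLJ2 carried the codon 7 of IGLV2 in every library but titled control 2, as given below. In those libraries the deposited name, more than the sequence, sets this pair apart from IGLV2-IGLJ2. IGLV1-IGLJ1, the commonest mouse lambda chain, took 58.8%, 57.8%, 56.7% and 59.0% of lambda reads in titled control and 50.6%, 42.1%, 46.3% and 42.1% in titled CT-26. IGLV2-IGLJ1 took 7.93%, 8.00%, 7.55% and 7.53% against 3.33%, 3.99%, 3.73% and 3.58%. The highest titled CT-26 library thus stayed below the lowest titled control library in both pairs.

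IGLV2-IGLJ2, the second commonest chain, took 25.9%, 27.7%, 26.7% and 25.8% against 34.7%, 42.1%, 36.7% and 33.9%. IGLV1-IGLJ3 took 5.34%, 5.37%, 6.45% and 5.30% against 8.83%, 8.79%, 10.3% and 17.9%. Titled CT-26 4 stood apart in this last pair, and without it the difference between means was 3.69 percentage points in place of 5.83, with an adjusted p of 0.0357 in the exact permutation test. IGLV1-IGLJ2 was a minor pair, with 1.33%, 0.453%, 1.69% and 1.63% against 1.78%, 1.99%, 2.15% and 1.71%. Without titled control 2, the lowest library, its difference was 0.352 percentage points in place of 0.627, and the adjusted p was 0.0714 in the exact permutation test.

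As means, IGLV1-IGLJ1 fell from 58.1% ± 1.07 to 45.3% ± 4.05, and IGLV2-IGLJ1 from 7.76% ± 0.247 to 3.66% ± 0.275 (SD, n = 4). IGLV2-IGLJ2 rose from 26.5% ± 0.873 to 36.8% ± 3.67, IGLV1-IGLJ3 from 5.61% ± 0.557 to 11.4% ± 4.33 and IGLV1-IGLJ2 from 1.28% ± 0.573 to 1.91% ± 0.199. These were the 5 pairs that held at least 1% of lambda reads, and all 5 had an adjusted p of 0.0286 in the exact permutation test and no overlap between sets. Among the 26 kappa pairs of at least 1% of kappa reads, 50% also did not overlap. Shares of lambda reads sum to a whole, so a rise in one pair lowers the others.

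**Figure D2:**
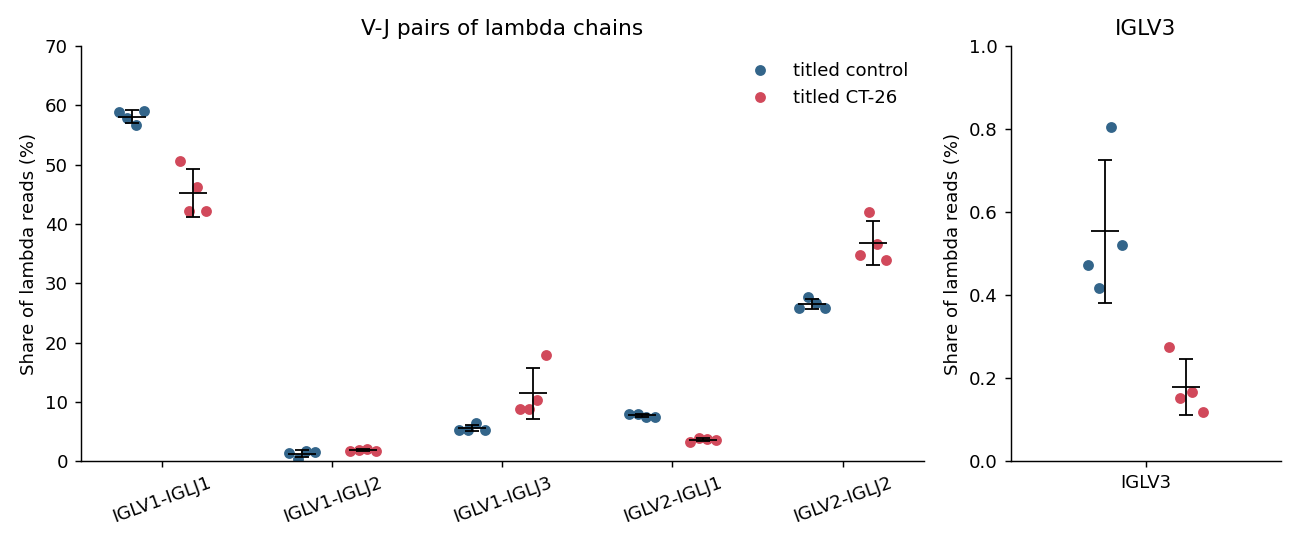
Share of lambda reads in percent for the 5 common V-J pairs (left) and for IGLV3 (right, own axis), with 1 point per library, the mean as a black bar and the SD over 4 libraries as whiskers. The 2 IGLJ1 pairs and IGLV3 sit lower in titled CT-26 and the other 3 pairs sit higher, without overlap.

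Summed by J segment, a grouping added after the data were seen, IGLJ1 fell from 65.8% ± 1.13 to 48.9% ± 3.85 of lambda reads. IGLJ2 rose from 28.3% ± 0.692 to 38.9% ± 3.78, and IGLJ3 from 5.83% ± 0.466 to 12.1% ± 4.37 (SD, n = 4). Each had an adjusted p of 0.0286 in the exact permutation test. Among the rare pairs, IGLV2-IGLJ3 took 0.0734% to 0.325% of lambda reads in titled control and 0.446% to 0.898% in titled CT-26. IGLV3 was joined to IGLJ2 almost without exception, at 0.120% to 0.803% of lambda reads, and to IGLJ1 or IGLJ3 at no more than 0.00279% in any library. IGLJ4, beside a constant segment that is not used for protein, had 7 to 22 reads a library. The constant segment was called only as IGLC for 100% of lambda reads, so the match of J to constant segment could not be measured in the receptor files.

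Against all light-chain reads, kappa included, the picture was different for the commonest chain. Read counts of 370 kappa and lambda V-J pairs were tested together with edgeR's quasi-likelihood test, and 17.8% of them passed an adjusted p of 0.05, 11 higher and 55 lower. Of the 8 lambda pairs tested, 3 were higher and 2 lower. IGLV1-IGLJ1 had a log2 fold change of -0.06 (SE 0.19) and an edgeR adjusted p of 0.842, with means of 14.1% and 13.6% of light-chain reads. IGLV2-IGLJ2 was higher by 0.78 (SE 0.20, adjusted p 0.0264), from 6.45% to 11.1% of light-chain reads. IGLV1-IGLJ3 was higher by 1.37 (SE 0.29, adjusted p 0.0194) and IGLV2-IGLJ3 by 1.91 (SE 0.52, adjusted p 0.0311).

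IGLV2-IGLJ1 had a log2 fold change of -0.78 (SE 0.21, edgeR adjusted p 0.0301) and IGLV3-IGLJ2 one of -1.28 (SE 0.32, adjusted p 0.0245). IGLV1-IGLJ2 missed the threshold, with 0.94 (SE 0.32, adjusted p 0.0633), and passed it with TMM scaling (1.51, adjusted p 0.0286) and with DESeq2 (1.495, adjusted p 0.00058). The median log2 fold change was 0.64 over the 8 lambda pairs and -0.50 over all pairs. Scaling by TMM moved the median of all pairs to 0.06 and the calls to 29 higher and 17 lower. With it IGLV1-IGLJ1 turned to 0.44 (adjusted p 0.312), and the falls of IGLV2-IGLJ1 (-0.28, adjusted p 0.531) and IGLV3-IGLJ2 (-0.75, adjusted p 0.0961) no longer passed. The rises of IGLV2-IGLJ2, IGLV1-IGLJ3 and IGLV2-IGLJ3 passed under either scaling. Of the 5 calls, that of IGLV1-IGLJ3 held whichever 1 library was left out. The other 4 calls were each lost in some of these fits. IGLV2-IGLJ1 lost its call on removal of titled control 1, titled control 2, titled control 4, titled CT-26 1 or titled CT-26 3. IGLV2-IGLJ2 lost its call on removal of titled CT-26 2 or titled control 4. IGLV2-IGLJ3 did so on removal of titled CT-26 2, titled CT-26 4 or titled control 4, and IGLV3-IGLJ2 on removal of titled control 3 or titled control 4. The edgeR adjusted p in those fits lay between 0.0538 and 0.0769.

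A few CDR3s held most reads of each common pair, and the leading one, by its mean over the 8 libraries, did not lead in every library. In IGLV1-IGLJ1 it was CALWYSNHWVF, with 50.7%, 51.6%, 52.1% and 51.4% of the pair's reads in titled control and 45.7%, 53.3%, 46.3% and 56.6% in titled CT-26. The titled CT-26 libraries fell on both sides of the titled control set, and the means of 51.5% ± 0.569 and 50.5% ± 5.36 (SD, n = 4) had an adjusted p of 0.771 in the exact permutation test. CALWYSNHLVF came next with 15.2% to 28.2%. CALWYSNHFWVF, which keeps all 27 bases of the reference IGLV1 end, had 2.45% to 5.47%.

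In IGLV2-IGLJ2 the leading CDR3 was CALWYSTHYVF, with 65.7%, 65.2%, 65.6% and 64.7% of the pair's reads against 61.2%, 58.0%, 59.0% and 58.4%. The sets did not overlap, and the difference between the means of 65.3% ± 0.415 and 59.1% ± 1.41 had an adjusted p of 0.0714 in the exact permutation test over 5 pairs. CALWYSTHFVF took 11.9% to 12.4% in titled control and 11.3%, 19.7%, 19.4% and 18.5% in titled CT-26. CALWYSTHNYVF, a joint with bases in neither segment, took at least 2.29% of the pair's reads in titled control and at most 1.66% in titled CT-26. The shorter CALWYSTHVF took 4.88% in titled CT-26 1 and 0.122% to 0.681% in the other libraries.

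The leading CDR3 of IGLV1-IGLJ3 was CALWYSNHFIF, with 47.9%, 46.8%, 45.6% and 45.8% against 63.8%, 55.8%, 54.6% and 34.0%. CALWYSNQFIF came second with 29.4% to 31.9% in titled control, 14.8% to 23.7% in titled CT-26 1 to 3 and 43.7% in titled CT-26 4. The library with the largest IGLV1-IGLJ3 share was thus also the one in which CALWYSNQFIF led. The share of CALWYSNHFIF had an adjusted p of 0.607 in the exact permutation test over all libraries. Without titled CT-26 4 the difference was 11.5 percentage points with an adjusted p of 0.0476 in the same test. That library lay below the titled control set and was singled out after its value was seen, so this p adds no support.

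The widest difference within a pair was in IGLV2-IGLJ1. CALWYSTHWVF took 64.1%, 67.0%, 62.7% and 66.0% of the pair's reads in titled control and 32.4%, 30.0%, 44.2% and 42.3% in titled CT-26. The means were 64.9% ± 1.95 and 37.2% ± 7.07 (SD, n = 4), with no overlap and an adjusted p of 0.0714 in the exact permutation test. This protein sequence comes from more than 1 joint. The joint printed above took 34.3%, 39.5%, 36.2% and 33.7% of the pair's reads in titled control and 28.7%, 23.3%, 38.1% and 34.3% in titled CT-26, so the sets overlapped. The joint with 23 bases of IGLV2 and all 10 of IGLJ1 took 29.2%, 26.7%, 25.8% and 31.7% against 3.30%, 6.26%, 5.74% and 7.56%. Its means were 28.3% ± 2.63 and 5.71% ± 1.78 (SD, n = 4). The next joint of the pair, of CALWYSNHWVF, was higher in titled CT-26, at 9.87% ± 0.375 and 19.1% ± 2.75, also without overlap. In the exact permutation test 4 against 4 libraries without overlap always give p = 0.0286 before adjustment. That p therefore adds no support to a joint chosen for its lack of overlap. The joint with 23 bases of IGLV2 is shown because its sets did not overlap while those of the leading joint did.
IGLV2-IGLJ1 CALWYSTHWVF, other joint: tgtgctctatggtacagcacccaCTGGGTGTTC

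**Figure D3:**
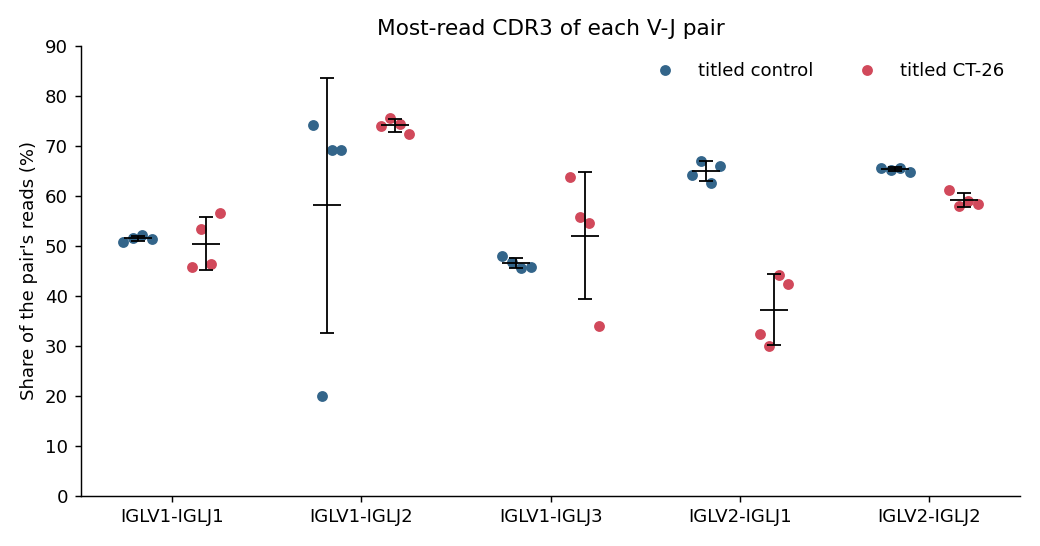
Share of each V-J pair's reads held by its most-read CDR3 amino acid sequence, in percent, with 1 point per library, the mean as a black bar and the SD over 4 libraries as whiskers. Titled control libraries lie close together in 4 pairs and spread in IGLV1-IGLJ2, and IGLV2-IGLJ1 shows the widest gap between sets.

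Codon 7 gives a check on the V name that does not depend on the deposited call, since it is AAC in reference IGLV1 and ACC in reference IGLV2. Entries named IGLV1 carried AAC in 92.0% to 95.4% of their reads and entries named IGLV2 carried ACC in 90.8% to 93.5%. In 2 minor pairs the codon and the name differed more often. Of IGLV1-IGLJ2 reads, 90.3%, 37.9%, 87.7% and 86.2% in titled control and 92.0%, 91.8%, 88.9% and 83.4% in titled CT-26 carried ACC, the codon of IGLV2. Its leading CDR3, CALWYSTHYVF, was the one that also led IGLV2-IGLJ2, except in titled control 2, where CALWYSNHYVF held 34.4% of the pair's reads and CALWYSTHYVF 19.9%. In IGLV2-IGLJ1, AAC was carried by 21.3% ± 2.43 of reads in titled control and 44.5% ± 8.43 in titled CT-26 (SD, n = 4).

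V was also named by codon 7, an alternative added after the data were seen, which left out reads with neither AAC nor ACC. Those were 2.25% of IGLV1 reads in titled control and 2.93% in titled CT-26, and 1.52% and 2.07% of IGLV2 reads. IGLV1-IGLJ2 took 0.498% ± 0.0304 of the lambda reads kept in titled control and 0.716% ± 0.0895 in titled CT-26. This difference was 0.218 percentage points, in place of 0.627 by the deposited names. IGLV2-IGLJ1 then took 7.29% ± 0.416 and 2.59% ± 0.39, and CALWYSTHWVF took 79.7% ± 0.258 and 61.8% ± 4.14 of that pair (SD, n = 4). The calls for the 3 V segments and the 5 pairs were as before. By pair, codon 7 was checked for the 5 common pairs and not for IGLV2-IGLJ3, the rare pair whose rise passed among light-chain reads. The share of a V-J pair that is an exchange of names between near-identical segments was not tested further.

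Variation along the CDR3 lay at the joint. Among CDR3s of 11 residues in IGLV1-IGLJ1, residue 9 differed from the pair's commonest amino acid in 29.2% ± 0.728 of reads in titled control and 31.6% ± 6.81 in titled CT-26. In IGLV2-IGLJ2 residue 9 differed in 19.4% ± 0.148 and 24.2% ± 4.47. In IGLV1-IGLJ3 the variable residue was number 8, with 39.3% ± 0.964 and 33.1% ± 15.4 (SD, n = 4). Residues 1 to 6, which the V segment encodes, differed in 1.02% to 4.54% of reads in these 3 pairs. Reads whose bases all matched a reference V start and the J end made up 78.0% ± 0.495 of lambda reads in titled control and 76.4% ± 0.261 in titled CT-26, with an adjusted p of 0.0667 in an exact permutation test over 7 shares. A mutation or a sequencing error anywhere in the CDR3 takes a read out of this share.

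**Figure D4:**
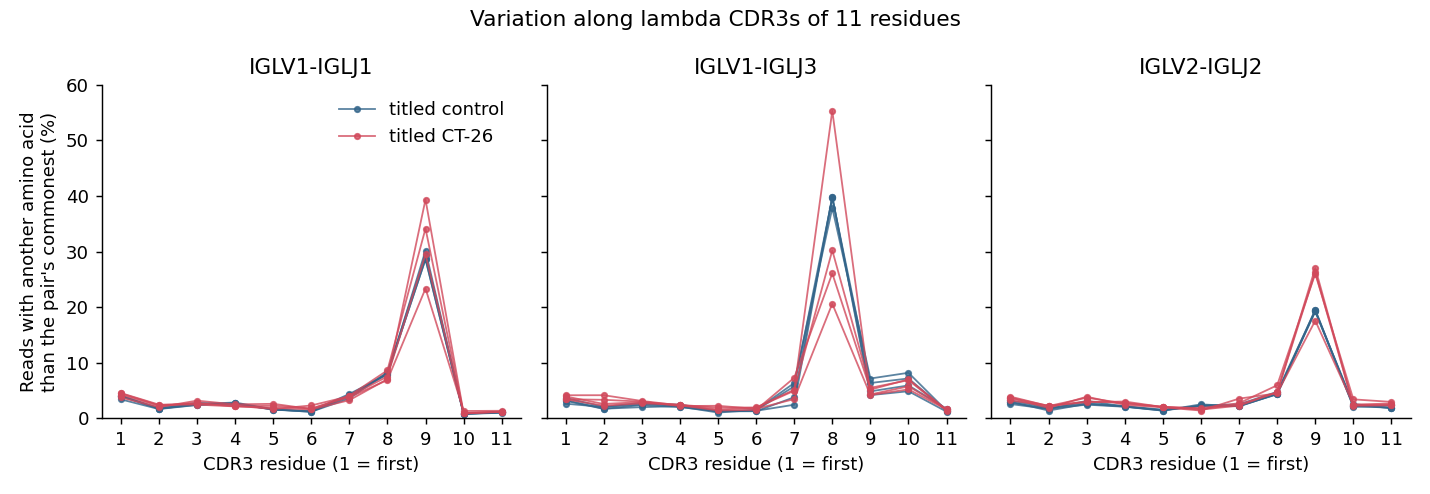
Percent of reads whose amino acid differs from the pair's commonest at each of the 11 CDR3 residues, with 1 line per library, for the 3 largest groups by pair. The peak is at residue 9 in IGLV1-IGLJ1 and IGLV2-IGLJ2 and at residue 8 in IGLV1-IGLJ3, where titled CT-26 4 reaches 55.3%.

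CDR3 length was nearly fixed by the V segment. IGLV1 CDR3s had 11 residues in 93.1% to 97.2% of reads and IGLV2 CDR3s in 92.7% to 98.9%. IGLV3 CDR3s had 15 residues in 97.6% to 100% of reads. Length 12 was less common in titled CT-26, at 5.88% ± 0.364 against 3.55% ± 1.13 of IGLV1 reads and 3.14% ± 0.400 against 1.57% ± 0.577 of IGLV2 reads (SD, n = 4). Mean length was 11.06 ± 0.00860 residues in titled control and 11.02 ± 0.0111 in titled CT-26. This difference of -0.0388 residues and those within IGLV1 (-0.0205) and IGLV2 (-0.0260) had an adjusted p of 0.0381 in the exact permutation test. The mean over all lambda reads also falls with the share of the longer IGLV3 CDR3s, which went from 0.553% to 0.179%. The differences within IGLV1 and IGLV2 do not hold that part. In IGLV2, titled CT-26 1 had 5.14% of reads at 10 residues, against 0.222% to 0.601% in the other libraries, and without it the IGLV2 difference was -0.0159 residues (adjusted p 0.0381, exact permutation test). For IGLV3 the difference was 0.0173 residues and the adjusted p 0.0857.

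The lambda repertoire was narrow and largely the same in every library. Of 25018 CDR3 amino acid sequences, 751 occurred in all 8 libraries and held 94.5% to 95.3% of lambda reads in each. The 3 most-read nucleotide sequences of a library held 45.1% to 52.9% of its lambda reads. At an equal 111359 reads, titled control held 6152 ± 134 clonotypes and titled CT-26 7020 ± 240, with an adjusted p of 0.0286 in the exact permutation test. Clonality, 1 minus the normalised Shannon entropy, was 0.576 ± 0.00528 and 0.561 ± 0.00780 (SD, n = 4), with the same adjusted p. It was computed on all lambda reads of each library, not at equal reads, and the part of read depth in it was not tested. Most of these clonotypes were weakly supported: 74.7% to 76.7% of nucleotide sequences in a library had 1 read, and 65.5% to 68.7% lay 1 mismatch from a more-read sequence. With entries of 1 read left out, the difference in clonotype number was -9.77 with p = 0.943 in the exact permutation test.

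The entries left out carried a difference of their own. Of all IGL reads, those out of frame or with a stop codon made up 12.1%, 12.2%, 11.6% and 11.5% in titled control and 6.79%, 7.34%, 7.57% and 5.85% in titled CT-26. The sets did not overlap, and the means of 11.8% ± 0.358 and 6.89% ± 0.767 (SD, n = 4) had p = 0.0286 in the exact permutation test, not adjusted. For kappa the shares were 3.70% ± 0.183 and 4.08% ± 0.303, with p = 0.0571 in the same exact test.

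Lambda took 27.6%, 28.2%, 19.0% and 22.4% of light-chain receptor reads in titled control and 29.4%, 31.9%, 25.9% and 33.1% in titled CT-26. The sets overlapped, and the means of 24.3% ± 4.38 and 30.1% ± 3.17 (SD, n = 4) had an adjusted p of 0.114 in the exact permutation test. Counted as clonotypes, lambda took 13.0% ± 2.12 and 17.5% ± 1.59, without overlap and with an adjusted p of 0.0571. A higher lambda share in titled CT-26 thus did not pass the test by either measure.

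RNA-seq of the same titles gave a lower lambda share and the opposite direction. Iglc1, Iglc2 and Iglc3 are the lambda constant segments and Igkc is the kappa constant segment. The 3 lambda constants together made up 3.31%, 3.32%, 4.66% and 3.21% of light-chain constant counts in titled control and 1.56%, 1.99%, 1.29% and 2.89% in titled CT-26. Every titled CT-26 library lay below every titled control library. The means were 3.63% ± 0.692 and 1.93% ± 0.699 (SD, n = 4), with an adjusted p of 0.0286 in the exact permutation test. Iglc1, which is spliced to IGLJ1, made up 19.1% ± 1.96 and 34.3% ± 6.63 of lambda constant counts (adjusted p 0.0286, exact permutation test). IGLJ1 fell from 65.8% to 48.9% of lambda receptor reads, so the assays differed in level as well as direction. Iglc3 had the most counts of the 3 lambda constants in every RNA library. The 2 assays differ in what they count, and their difference was not tested.

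**Figure D5:**
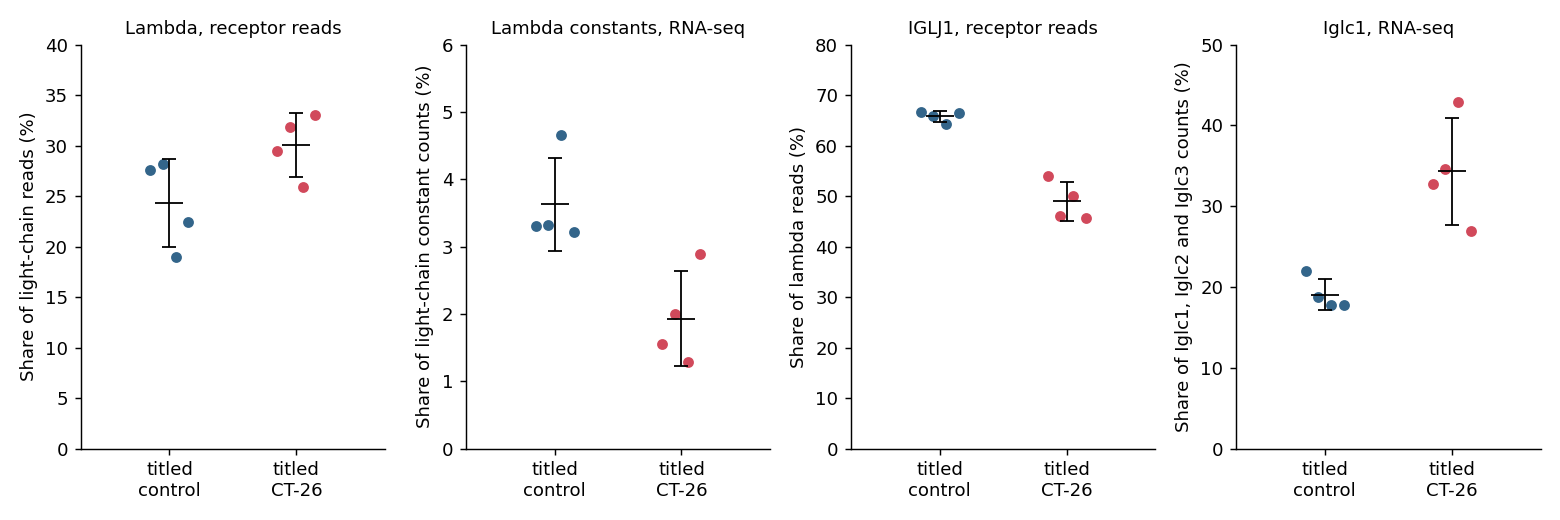
Lambda share of light chains and share of the IGLJ1-Iglc1 cluster within lambda, in percent, by receptor reads and by RNA-seq counts, with 1 point per library, the mean as a black bar and the SD over 4 libraries as whiskers. In titled CT-26 the RNA-seq lambda share is lower while the receptor share is not, and Iglc1 is higher within lambda constants while IGLJ1 is lower within lambda reads.

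Of 22 light-chain and receptor genes listed, 9 had enough counts to test and 7 of them were lower in titled CT-26 by edgeR's robust quasi-likelihood test, with 0 higher. Over all 6408 genes tested, 42.8% passed in either direction. The median log2 fold change was -1.79 over the 9 genes and -0.02 over all genes. Iglc3 had 776 ± 132 CPM in titled control and 232 ± 59.4 in titled CT-26 (SD, n = 4), a log2 fold change of -1.74 (SE 0.23, edgeR adjusted p 3.61e-07). Iglc2 had 187 ± 102 and 54.2 ± 20.2 CPM (-1.79, SE 0.42, edgeR adjusted p 0.00468), and Iglc1 227 ± 32.7 and 144 ± 7.26 CPM (-0.65, SE 0.20, edgeR adjusted p 0.00829). The smaller change of Iglc1 was not past the threshold with library totals in place of TMM (-0.27, edgeR adjusted p 0.396), a scaling that moved the median of all genes to 0.35. Of the 50-base windows of the Iglc3 transcript 10.7% also occur in Iglc2, so part of their counts may be split between them, and 0% of Iglc1 windows occur in either.

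Igkc had 32218 ± 4543 and 23075 ± 5137 CPM (SD, n = 4), with a log2 fold change of -0.48 (SE 0.27, edgeR adjusted p 0.157). The signalling partners of the receptor fell, Cd79a by 1.86 (SE 0.23) and Cd79b by 2.02 (SE 0.24) on the log2 scale, with edgeR adjusted p of 1.52e-07 and 6.31e-08. Ighd, the heavy-chain constant segment of naive B cells, fell by 3.94 (SE 0.25, edgeR adjusted p 6.00e-12). Ighm, the constant segment of IgM, had a log2 fold change of 0.08 (SE 0.25, adjusted p 0.817). Vpreb3 fell by 2.14 (SE 0.41, edgeR adjusted p 0.00121). Igll1, Vpreb1, Vpreb2, Rag1, Rag2 and Dntt, the genes of pre-B cells and of joining, had between 0 and 3 counts in every library and were not tested.

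The V segments themselves did not pass the filter on low counts in RNA-seq and were not tested. Iglv1 had 11, 35, 18 and 11 counts in titled control and 5, 12, 2 and 6 in titled CT-26. Iglv3 had 3, 6, 8 and 11 counts against 2, 0, 2 and 1. These are few and unscaled counts, not shares of lambda, so they cannot be set beside the receptor share of IGLV3. Iglv2 had 0 to 3 counts in every library, although IGLV2 took at least 33.5% of lambda receptor reads.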

How the data were processed

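The RNA tables hold raw counts per gene, deposited by the authors and made with featureCounts 2.0.1 on GENCODE M29 per the file headers. Trimmomatic 0.39 and STAR 2.7.10a are named in the submitters' processing notes, with GRCm38 and GRCm39 as builds. The BCR tables hold whole-number read counts per assembled CDR3, deposited by the authors, and no source used here names the program that made them. Per the labels a SMARTer mouse TCR kit was named for library making. TCR tables were not used, and 1 listed marker gene is not reported here.

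Shares were computed from the counts, with alleles joined, and compared by two-sided exact permutation over 70 assignments, adjusted by Benjamini and Hochberg within each family at 0.05. Kappa and lambda V-J read counts, scaled to light-chain totals, and RNA counts, scaled by TMM, were filtered with filterByExpr and tested with edgeR's quasi-likelihood test (robust for RNA). Both were tested on simulated data: of 2-fold and 4-fold changes, 57% and 98.9% were found among 6582 genes and 69.2% and 91.7% among 380 V-J pairs. The simulated libraries were independent, with the same dispersion for every gene or pair and with 200 genes or 25 pairs changed. The real libraries may differ in each of these, so the rates are not their power. Every V segment, the pairs of at least 1% of lambda reads, their leading CDR3s and the tested genes of the list are named, and further CDR3s and joints were chosen after their values were seen. The members and lists were chosen with earlier results of these data known. Same-numbered libraries were checked for pairing over 256 V-J pairs (r from -0.073 to 0.035) and were not paired. J to constant segment matching was planned and could not be computed. The receptor tables list reads, not molecules, so counting error understates the error of a share. The software was Python 3.11.15, pandas 2.3.3, scipy 1.17.1, R 4.3.3, edgeR 4.0.16 and DESeq2 1.42.0.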

Additional observations from a re-analysis of the deposited data

Results flagged for a closer look

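Among 92 sets of 4 libraries examined for 1 library far from the other 3, 11 had one, and chance gives about 1 in 20. Titled CT-26 4 had 17.9% of lambda reads in IGLV1-IGLJ3, against 8.79% to 10.3% in the others of its set. Titled control 3 had 6.45% there (5.30% to 5.37% in the others) and 6.52% in IGLJ3 (5.52% to 5.69%). Titled control 2 had 19.9% of IGLV1-IGLJ2 reads in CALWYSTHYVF, against 69.1% to 74.2%. Of its reads with that name 37.9% carried ACC at codon 7, against 86.2% to 90.3% in the others of its set. In RNA, lambda constants made up 4.66% of light-chain constant counts in titled control 3, against 3.21% to 3.32%, and Vpreb3 was at 81.2 CPM in titled CT-26 1, against 37.6 to 39.9. Pancreas enzyme genes were high in a few libraries: in titled control 4, Cela1 was at 57.6 CPM (10.4 to 16.8 in the others), Cpa1 at 354.9 (15.6 to 63.0) and Ctrb1 at 477.1 (21.9 to 60.9). In titled CT-26 3, Cpa1 was at 145.0 CPM (4.32 to 13.0) and Ctrb1 at 565.1 (0.864 to 27.3).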

How the results depend on the processing

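Among results that had passed a test, 1 changed sign under an alternative: the clonotype difference was -9.77 with entries of at least 2 reads, where 0 of 2 diversity tests passed, as with CDR3s from C to F or W (0). Results that had not passed also changed sign in some settings, namely IGLV1-IGLJ1 among light-chain pairs (0.44 with TMM, 0.43 with DESeq2), the shares of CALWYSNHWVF (0.588 without titled CT-26 1) and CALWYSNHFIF (-0.579 with clonotypes), and Ighm (-0.05 without titled control 2), and did not pass there. The lambda share difference was 4.50 points with clonotypes in place of reads and passed there (exact permutation p 0.0286), since both shares of the family are then the same, and without 1 library it lay between 3.98 and 7.14. Leaving out 1 library left 0 to 3 calls among V segments (0 without titled control 1, 3 or 4), 3 to 4 among 5 pairs (3 without titled control 2) and 2 to 3 among J segments. The pair lost was IGLV1-IGLJ3 on removal of any 1 titled control library and IGLV1-IGLJ2 on removal of titled control 2 or any 1 titled CT-26 library, and the J segment lost was IGLJ3 (adjusted p 0.0571 to 0.143, exact permutation). It left 0 to 3 among leading CDR3s (3 without titled control 1 or titled CT-26 4), 0 to 4 for length and 0 to 2 for diversity (0 for both without any 1 titled control library). In a test of 3 against 4 libraries a call can be lost without overlap. Leave-one-out fits in edgeR made 32 to 65 calls among light-chain V-J pairs, against 66 with all libraries, with 34 without titled control 3 and 32 without titled control 4, and 7 for the RNA list. The RNA lambda share difference lay between -2.01 and -1.35, and lost its call without any 1 titled control library (adjusted p 0.0571, exact permutation). With the replicate number as a block, the paired exact test cannot go below 0.125. That left 0 calls for V segments, V-J pairs, J segments, length and diversity, and the RNA lambda share (-1.69) lost its call. The edgeR fit with the block made 21 calls among light-chain pairs and 7 in the RNA list. With titled control as 1 sample the counts were 0 for V segments, V-J pairs, J segments, length and diversity, and the RNA lambda share of -1.69 lost its call. Full-length contigs alone were not used, since 3 libraries had 0% of lambda reads in them, and the match of J to constant segment gave no value.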
